A study of Mus musculus with 14 samples.

Results

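The genes described here encode the Mediator complex and the SWI/SNF chromatin remodellers, and the measurement was acetylation of histone H3 at lysine 27 (H3K27ac) at their ends, a mark found at promoters and enhancers in use. Members were the mouse protein-coding genes whose symbols are Med followed by a number, those that start with Smarc or Arid, and Dpf1, Dpf2, Dpf3, Pbrm1, Brd7, Brd9, Actl6a, Cdk8 and Ccnc. This rule took 62 of 21887 protein-coding genes. Of these, 32 encode Mediator subunits, its kinase module included, 19 encode SWI/SNF subunits, and 11 carry a matching symbol but belong to neither complex, among them the ISWI ATPase genes Smarca1 and Smarca5 and the Arid3, Arid4 and Arid5 genes.

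Mediator is a large protein complex that bridges transcription factors bound at enhancers and RNA polymerase II at promoters. Its head and middle contact the polymerase, its tail receives most activators, and a detachable kinase module of Cdk8 or Cdk19, cyclin C, Med12 and Med13 controls when the polymerase can bind. SWI/SNF complexes use the ATPase Smarca4 or Smarca2 to slide or evict nucleosomes, and come in types known as canonical BAF (with Arid1a or Arid1b and a Dpf protein), PBAF (with Pbrm1, Arid2 and Brd7) and non-canonical BAF (with Brd9). In macrophages Smarca4 is known for opening the chromatin of inflammatory genes.

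The cells were CD11b+ tumour-associated macrophages sorted by flow cytometry from T387 glioblastoma xenografts in the brains of NSG mice, a strain without mature lymphocytes. H3K27ac was profiled by CUT&Tag, in which an antibody directs a transposase to cut and tag the DNA beside the mark. The H3K27ac libraries came from 4 pracinostat-treated and 3 DMSO vehicle-treated samples, and IgG libraries, which give the background of the assay, were made for 4 pracinostat and 3 DMSO samples. Both groups had the same host strain and tumour. Pracinostat, an inhibitor of histone deacetylases (the enzymes that remove acetyl groups), was given by mouth at 30 mg/kg 4 times per week for 3 weeks from day 7 after implantation. A second passage of the labels gives 3 mg/kg for the prepared drug, and the dose is therefore stated as labelled. The vehicle was the solvent mixture without drug. Replicates are called biological in the labels, which do not tie a library to an animal or give the animals' age, so a p-value here weighs only the scatter from one deposited sample to the next. CD11b is also found on neutrophils and microglia, so the gate can hold these cells besides macrophages.

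Each library came as a list of peak summits, each with a −log10 significance value here called its score. A gene was given the highest score within 1 kb of either of its ends, and this score was turned into a percentile among 13494 genes, those for which 3 or more of the 7 H3K27ac libraries had a summit. A percentile of 100 is the highest-scoring gene of a library. Percentiles compare a gene with other genes of the same library, so a change shared by all genes would not show. Windows have the same width for every gene of 2 kb or more, and Med11 is the 1 member shorter than that, so its windows overlap. The read depth is not given in the sources used here. H3K27ac lists held 229609 to 289017 summits with pracinostat and 53503 to 291042 with DMSO. The low value was that of DMSO replicate 2, in which 34928 summits shared the lowest score. Genes whose best summit had that lowest score shared the 47.3 percentile in DMSO replicate 2, so 47.3 there is a weak summit. IgG lists held 2194 to 10186 summits with pracinostat and 9244 to 18517 with DMSO. Macrophage genes differed in level. Spi1 and Tyrobp, among the highest of them, lay between the 69.2 and 99.9 percentile in all 7 H3K27ac libraries. Itgam lay lower, at 29.9 to 61.7, as did Fcgr3, at 11.8 to 61.9 with a summit in 6 libraries. The mean percentile of 10 macrophage markers was 65.8 to 76.0 in pracinostat libraries and 58.6 to 68.9 in DMSO libraries. That of 8 microglia markers was 54.8 to 68.1 with pracinostat and 46.9 to 48.5 with DMSO, and that of the 8 ranked of 9 neutrophil markers was 16.9 to 28.9 with pracinostat and 31.8 to 44.1 with DMSO, with Ly6g having no summit in any library. Mean percentiles of the ranked lymphocyte (5 of 7), neural (3 of 8) and vascular (3 of 5) markers were between 5.57 and 36.7 in every library. Single markers lay higher, with Mbp of the neural list at 41.0 to 79.1 over all 7 libraries. Cd3d of the lymphocyte list reached 72.5 in DMSO replicate 3. In such bulk samples, fewer cells of one type and less of the mark per cell cannot be told apart.

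The sequences just upstream of 7 members are shown, and their bearing on the ranks was not tested. Among the members that could be ranked, Dpf2 had the highest mean H3K27ac rank and its relatives Dpf1 and Dpf3 the lowest. Cdk8, Brd9, Med18 and Smarcb1 were among the members with the largest differences between groups in their role. Each is the 250 bases before the annotated start, 5′ to 3′ on the gene's strand, from RefSeq on GRCm38.p6 (mm10). Capitals mark the GC box (GGGCGG), the CCAAT box (CCAAT) and the ETS core (CCGGAA), each searched on both strands with overlapping matches allowed.
Dpf2, minus strand, chr19:5912872-5913121: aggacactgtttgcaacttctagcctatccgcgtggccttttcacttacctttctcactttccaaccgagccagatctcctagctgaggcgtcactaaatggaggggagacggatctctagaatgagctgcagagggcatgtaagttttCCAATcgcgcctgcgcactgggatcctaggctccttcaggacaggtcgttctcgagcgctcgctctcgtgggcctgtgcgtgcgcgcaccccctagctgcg
Dpf1, plus strand, chr7:29303755-29304004: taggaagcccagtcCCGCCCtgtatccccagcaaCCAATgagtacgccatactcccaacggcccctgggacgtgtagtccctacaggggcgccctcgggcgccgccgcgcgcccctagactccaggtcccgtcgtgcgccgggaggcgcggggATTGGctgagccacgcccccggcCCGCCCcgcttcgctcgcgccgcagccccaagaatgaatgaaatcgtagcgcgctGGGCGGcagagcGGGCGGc
Dpf3, minus strand, chr12:83487737-83487986: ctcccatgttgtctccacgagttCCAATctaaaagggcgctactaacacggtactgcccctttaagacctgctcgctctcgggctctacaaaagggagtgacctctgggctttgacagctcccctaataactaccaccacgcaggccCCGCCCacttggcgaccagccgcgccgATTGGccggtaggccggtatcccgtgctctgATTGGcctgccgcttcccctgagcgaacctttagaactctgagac
Cdk8, plus strand, chr5:146231000-146231249: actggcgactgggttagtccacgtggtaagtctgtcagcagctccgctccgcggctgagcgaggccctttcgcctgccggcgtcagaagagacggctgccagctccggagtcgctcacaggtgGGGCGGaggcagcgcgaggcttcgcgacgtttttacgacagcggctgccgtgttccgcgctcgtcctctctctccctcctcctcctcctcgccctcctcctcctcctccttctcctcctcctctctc
Brd9, plus strand, chr13:73937561-73937810: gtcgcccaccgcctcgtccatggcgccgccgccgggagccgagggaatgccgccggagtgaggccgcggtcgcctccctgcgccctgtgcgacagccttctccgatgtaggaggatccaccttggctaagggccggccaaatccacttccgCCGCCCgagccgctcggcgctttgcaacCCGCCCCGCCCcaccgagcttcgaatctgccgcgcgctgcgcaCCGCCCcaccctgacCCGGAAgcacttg
Med18, minus strand, chr4:132463922-132464171: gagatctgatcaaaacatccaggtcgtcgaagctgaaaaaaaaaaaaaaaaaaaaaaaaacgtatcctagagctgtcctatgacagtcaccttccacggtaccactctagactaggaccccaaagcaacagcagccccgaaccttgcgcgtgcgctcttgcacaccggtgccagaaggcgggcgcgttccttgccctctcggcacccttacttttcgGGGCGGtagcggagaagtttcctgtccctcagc
Smarcb1, minus strand, chr10:75921615-75921864: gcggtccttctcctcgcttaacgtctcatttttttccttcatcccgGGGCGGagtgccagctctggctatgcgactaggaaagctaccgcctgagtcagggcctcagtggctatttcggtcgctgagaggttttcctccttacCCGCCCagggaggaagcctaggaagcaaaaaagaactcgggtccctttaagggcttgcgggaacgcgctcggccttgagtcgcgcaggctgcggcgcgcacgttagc
The Dpf2 stretch holds 1 CCAAT box and no GC box, and the Dpf1 stretch holds 4 GC boxes and 2 CCAAT boxes. The Brd9 stretch holds 4 GC boxes, 2 of which overlap, and 1 ETS core. The Cdk8 and Med18 stretches hold 1 GC box each, and Smarcb1 has 2.

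Over the promoter windows of 300 bases that the same table gives, 250 before and 50 after the start, 54 of the 62 members had an entry, with 62 windows in all. The GC box was in 71.0% of member windows and in 46.2% of all 21263 windows, and in 59.1% of windows of ranked genes. The ETS core was in 41.9% of member windows, against 18.7% of all windows and 25.7% of windows of ranked genes. The CCAAT box was in 33.9% of member windows, 38.2% of all and 37.7% of those of ranked genes, and the TATA box (TATAAA, both strands) in 8.06% of member windows, 12.6% of all and 7.71% of those of ranked genes. The PU.1 letters GAGGAAGT (both strands) were in no member window, against 3.13% of all windows and 3.14% of those of ranked genes. Member windows held a median of 23 CpG dinucleotides, against 13 over all windows and 19 over those of ranked genes. These are descriptions of letters and no test was made of them.

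Most of these genes carried H3K27ac in every library. A summit lay within 1 kb of a gene end in all 7 H3K27ac libraries for 45 of the 62 members (72.6%), against 34.7% of all protein-coding genes. By library, 56, 57, 56 and 60 members had a summit with pracinostat and 56, 48 and 57 with DMSO. The low count was that of the short list, DMSO replicate 2. All genes showed the same order, with a summit at 59.6% ± 1.45 of genes in pracinostat libraries (SD, n = 4) and 52.6% ± 12.1 in DMSO libraries (SD, n = 3).

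The remaining 17 members fell short in different ways. A summit was found in 6 libraries for 9 members, of which 7 lacked one only in DMSO replicate 2. Arid3b, Brd7, Dpf1 and Dpf3 had one in 3 to 5 libraries. Smarca1, Med10, Smarcal1 and Med12l had one in 1 library and were not ranked, which left 58 ranked members. In the IgG libraries 0, 0, 0 and 2 members had a summit with pracinostat and 4, 0 and 0 with DMSO. Those members were Arid3a and Med11 in pracinostat IgG and Med7, Med19, Med20 and Pbrm1 in DMSO IgG, and IgG summits lay at 0.53% to 2.70% of all genes.

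Summits of the members gathered at the transcription start. Within 2 kb of a start there were 346 ± 11.2 H3K27ac summits per 100 member start sites with pracinostat (SD, n = 4) and 265 ± 122 with DMSO (SD, n = 3). All genes had 213 ± 13.4 with pracinostat and 157 ± 74.6 with DMSO. IgG libraries had 0.806 ± 0.931 per 100 member starts with pracinostat and 2.69 ± 4.66 with DMSO. The large SD of the DMSO group came with DMSO replicate 2, which had 124 summits per 100 member starts against 331 and 340 in the other DMSO libraries. Of the member start sites with a summit near them (some members have more than one start), the best summit lay within 300 bp for 56.4% to 70.7% in pracinostat libraries and 62.5% to 74.5% in DMSO libraries. At Dpf2 the best summit lay within 35 bp of the start in all 7 libraries. That of Cdk8 lay 85 to 275 bp upstream of the start, mostly inside the stretch printed for it.

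**Figure D1:**
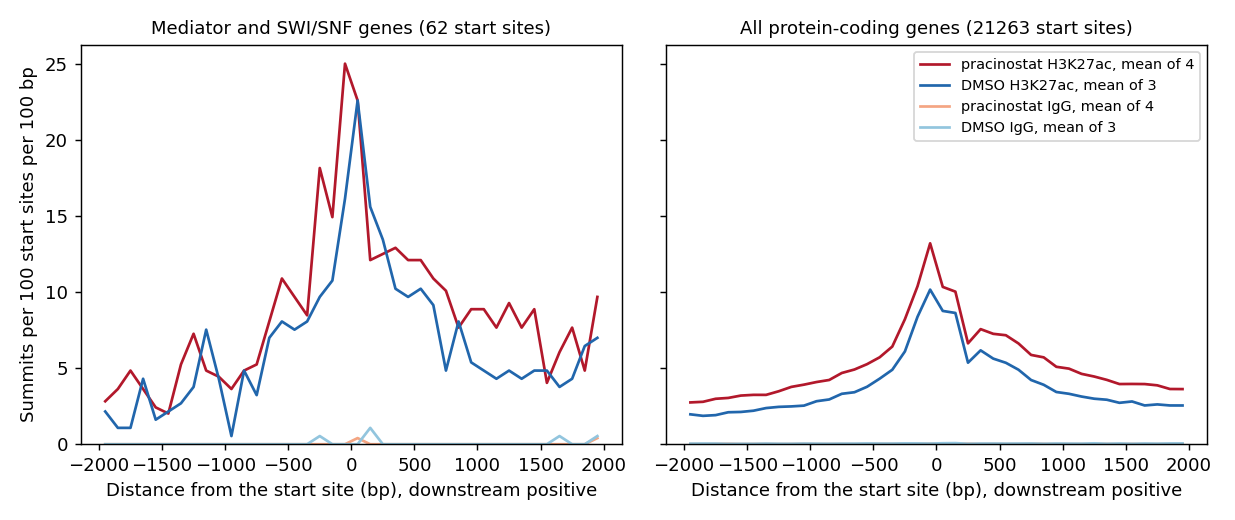
Summits per 100 start sites in bins of 100 bp, by distance from the start site in bp, for member genes (left) and all protein-coding genes (right), as the mean of the 4 pracinostat or 3 DMSO libraries for H3K27ac and IgG. Member genes had 346 summits per 100 starts with pracinostat and 265 with DMSO within 2 kb, with the highest bins beside the start, while the IgG lines stay near 0.

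The 5′ end carried the higher score in most members with a start entry. The score at the 5′ end exceeded that at the 3′ end in at least 5 of 7 libraries for 45 of 54 members, the 3′ end was higher for 2, and 7 showed neither. The exceptions were Arid3c and Smarcd3, which were higher at the 3′ end in 7 of 7 libraries. The 3′ end of Arid3c shares its window with Dctn3, so their signal cannot be separated. In all, 25 of the 62 members had another gene's end within 1 kb of their own. For 13 members the best summit itself lay within 1 kb of another gene's end in at least 5 libraries, such as Brd9 with Trip13, Med20 with Bysl, Med22 with Rpl7a, Arid4b with Ggps1, Smarcd2 with Tcam1 and Pbrm1 with Gnl3, and those values belong to a shared window. The best summit of Med11 lay outside any other gene's window in all 7.

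For 2 unranked members a start inside the annotated gene held the summits. Med10, a middle subunit, had a summit beside an internal start in all 7 libraries. When genes were ranked by their start sites alone, Med10 averaged the 54.2 percentile ± 12.5 with pracinostat (SD, n = 4) and 49.5 ± 16.4 with DMSO (SD, n = 3). Smarcal1, a DNA annealing helicase of the replication fork, had a summit at its internal start in 6 libraries. Its percentiles at that start were 37.5, 67.3, 58.8 and 78.0 with pracinostat, against 18.6, 16.6 and 35.3 with DMSO, and 16.6 is the shared rank of starts without a summit in DMSO replicate 2. The groups did not overlap, and since this gene was singled out after its values were seen, no test is given. In this start-site ranking of 10153 genes, 2 of 51 members (Med13l and Smarcal1) were higher without overlap, or 3.92%, against 3.01% of all genes. Another 2 (Cdk8 and Smarcd2) were lower without overlap, against 3.5% of all genes, so both shares were near the background.

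Ranked members lay above the middle of the genome in each library. Their median percentile was 66.9, 66.7, 63.7 and 60.6 in pracinostat libraries and 67.0, 72.3 and 73.3 in DMSO libraries, against medians of 47.3 to 51.4 over all ranked genes. The group means of these medians were 64.5 ± 2.97 with pracinostat (SD, n = 4) and 70.8 ± 3.39 with DMSO (SD, n = 3). This gap was not tested, and differences taken gene by gene did not show it. The median member difference in mean percentile, pracinostat minus DMSO, was 0.28 points, against −0.30 over all ranked genes. Averaged over 7 libraries, 19 of 58 members (32.8%) were at or above the 75 percentile, against 20.4% of all ranked genes, and 3 members (5.17%) were under the 25 percentile, against 23.8%. Dpf2, Med11, Med15, Med20 and Smarca4 were at or above 75 in every library, which is 8.62% of ranked members against 5.25% of all ranked genes. Members under the 25 percentile in every library numbered 0, against 5.75% of all ranked genes. Such a level was not particular to the members. By role, the median of their mean percentiles ran from 53.7 to 72.7. Among lists outside the rule, described below, it was 68.5 for other remodellers, 61.1 for RNA polymerase II subunits and 59.5 for SWI/SNF and kinase module partners.

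**Figure D2:**
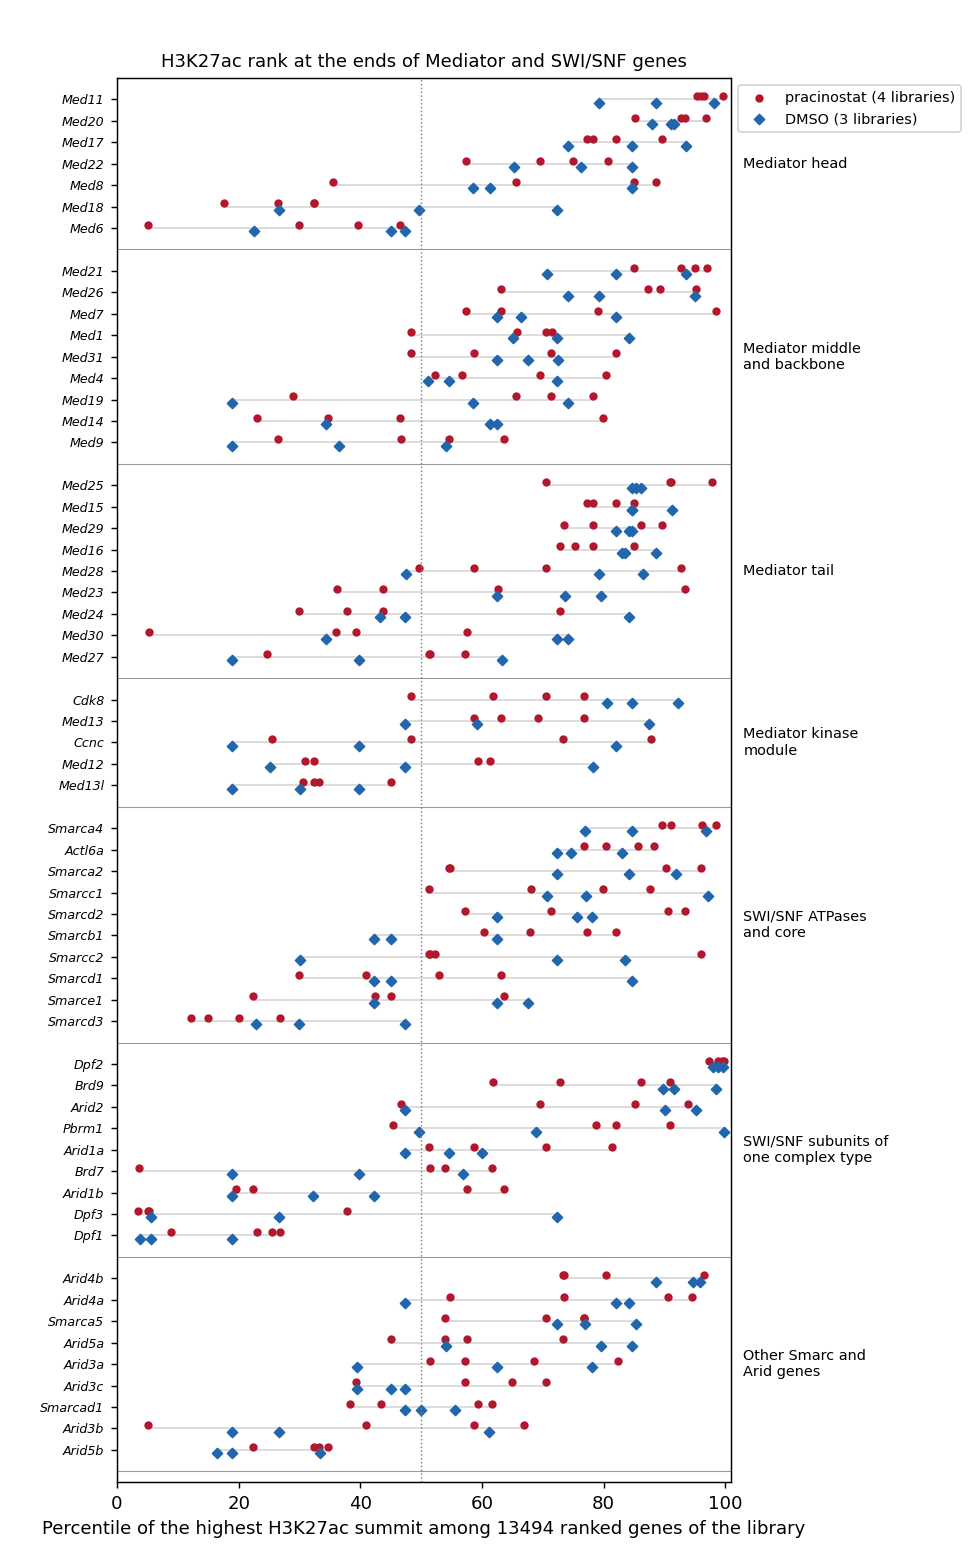
Percentile of the highest H3K27ac summit at the gene ends for the 58 ranked members, by role and in falling order within a role. Circles are the 4 pracinostat libraries, diamonds the 3 DMSO libraries, grey lines the whole range, and the dotted line the 50 percentile; Dpf2 sits at 97.4 to 99.9 and Dpf1 at 3.83 to 26.7.

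Among the Mediator head genes, Med11, Med17 and Med20 ranked highest. Med11 had percentiles of 96.0, 96.5, 99.7 and 95.3 with pracinostat and 98.1, 79.2 and 88.6 with DMSO. Those of Med20 were 85.2, 92.8, 96.8 and 93.3 with pracinostat and 91.0, 91.5 and 87.9 with DMSO. Both genes were high in each library and their groups overlapped. Med18, whose protein forms a movable part of the head with Med20, lay lower, at 17.6, 32.5, 32.3 and 26.5 with pracinostat and 49.7, 72.3 and 26.6 with DMSO. A single DMSO library overlapped with the pracinostat libraries for Med18. The lowest mean of the head was 33.8, at Med6.

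In the middle, Med21 averaged 88.0 and Med9 43.0 over the 7 libraries. Med1, the subunit that binds nuclear receptors, had 70.6, 71.5, 65.8 and 48.4 with pracinostat and 65.2, 72.3 and 84.2 with DMSO. Med9 had 54.5, 46.7, 63.7 and 26.5 with pracinostat, and 54.1, 19.0 and 36.5 with DMSO, where 19.0 is the shared rank of genes without a summit in DMSO replicate 2. Both groups overlapped for each gene.

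The tail genes ranged from Med25 with a mean of 86.7 to Med27 with 43.8. The median tail gene was at 57.2 to 73.4 in pracinostat libraries and 79.2 to 83.5 in DMSO libraries. On the normal-score scale explained with the comparison of groups, 7 of 9 tail genes had a lower mean with pracinostat (5 of 9 without pracinostat replicate 3), against 51.4% of all ranked genes. Of the middle genes 3 of 9 were lower, with a median difference of 0.15. Lower counts elsewhere were 4 of 7 in the head, 2 of 5 in the kinase module and 5 of 10 among SWI/SNF ATPases and core genes. They were 5 of 9 among subunits that define a SWI/SNF type and 4 of 9 among genes in neither complex. The tail was thus the most one-sided role and is singled out here for that. The median tail difference was −0.26 on that scale, against −0.01 over all ranked genes, and it ran from −0.30 to −0.06 under the alternatives. None of these counts was tested. Med30 had percentiles of 57.5, 36.0, 5.23 and 39.3 with pracinostat and 34.3, 72.3 and 74.1 with DMSO, and its value of 5.23 is that of a gene without a summit. Med27 had 51.4, 24.7, 57.2 and 51.2 with pracinostat and 39.8, 19.0 and 63.3 with DMSO, again with no summit in DMSO replicate 2. The groups overlapped at both genes, and the median of the tail was not tested.

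Genes of the kinase module ranked lower, with Med13 and Cdk8 above the others. Cdk8, the kinase, had percentiles of 48.3, 70.6, 76.7 and 61.9 with pracinostat, against 80.6, 84.6 and 92.2 with DMSO. Every pracinostat library lay below every DMSO library. Cyclin C, encoded by Ccnc, had 87.7, 73.3, 25.5 and 48.4 with pracinostat and 39.8, 19.0 and 82.0 with DMSO, the widest scatter of the module, with no summit in DMSO replicate 2. Med12, which activates the kinase, had 30.8, 61.3, 32.3 and 59.3 with pracinostat and 25.2, 47.3 and 78.3 with DMSO. The 47.3 of Med12 is the shared rank of the lowest score in DMSO replicate 2. Cdk19, the paralogue of Cdk8 outside the member rule, averaged 78.0 over the 7 libraries and Cdk8 73.6, and Cdk8 was the higher of the pair in 2 of 7. At the gene ends Med13 exceeded Med13l in 7 of 7 libraries without overlap, by 33.1 ± 10.3 percentile points (SD, n = 7). Their mean order turned in the whole-gene ranks given below.

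Among the SWI/SNF ATPases and core genes, Smarca4 stood highest. It had percentiles of 89.6, 98.4, 96.3 and 91.1 with pracinostat and 96.9, 84.6 and 77.0 with DMSO. Smarca4 exceeded the other ATPase gene, Smarca2, in 5 of 7 libraries by 12.9 ± 18.8 points on average (SD, n = 7), and their ranges overlapped. Smarcb1, a core subunit that grips the nucleosome, had 60.3, 82.1, 67.8 and 77.3 with pracinostat and 45.1, 62.6 and 42.3 with DMSO. A single DMSO library reached into the pracinostat range. Of the 3 Smarcd genes, which encode alternative core subunits, Smarcd2 averaged 75.5, Smarcd1 51.3 and Smarcd3 24.9. Smarcd2 and Smarcd3 did not overlap, while Smarcd2 exceeded Smarcd1 in 6 of 7 libraries. The Smarcd2 values come from its outer gene end, where Tcam1 has an end too. At the annotated starts the order of Smarcd2 and Smarcd1 turned, with mean percentiles of 21.3 ± 14.3 for Smarcd2, 43.4 ± 22.1 for Smarcd1 and 9.47 ± 6.69 for Smarcd3 (SD, n = 7) among genes ranked by starts alone, and Smarcd2 exceeded Smarcd1 in 1 of 7 libraries. Smarcd3 had 26.7, 20.1, 14.9 and 12.1 with pracinostat and 29.9, 47.3 and 22.9 with DMSO, and these values are of its 3′ end. Its highest value, 47.3, is the shared rank of genes with the lowest score in DMSO replicate 2.

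Related genes stood far apart in the Dpf family, which encodes alternative histone-reading subunits of canonical BAF. Dpf2, the broadly expressed form, had percentiles of 97.4, 99.5, 98.8 and 99.9 with pracinostat and 99.7, 98.8 and 98.0 with DMSO, from scores of 83.6, 305, 122 and 169 with pracinostat and 342, 36.7 and 131 with DMSO. It lay in the top 3 percent of ranked genes in every library although its score differed severalfold between them. Dpf1 and Dpf3 are known for neurons and for heart and muscle. Dpf1 had 26.7, 8.91, 25.5 and 23.0 with pracinostat and 5.61, 19.0 and 3.83 with DMSO, and the DMSO values are those of a gene without a summit. Dpf3 had 5.15, 37.8, 5.23 and 3.42 with pracinostat and 5.61, 72.3 and 26.6 with DMSO, with a summit in 3 libraries. Dpf2 exceeded Dpf1 by 82.8 ± 10.0 points and Dpf3 by 76.6 ± 25.8 points (SD, n = 7), in 7 of 7 libraries and without overlap. Both of these promoters hold more GC and CCAAT boxes than the Dpf2 promoter printed above.

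Other subunits that define a SWI/SNF type also differed from their relatives. Brd9 of non-canonical BAF had percentiles of 72.9, 86.1, 90.9 and 61.9 with pracinostat and 89.8, 91.5 and 98.6 with DMSO, and exceeded Brd7 of PBAF in 7 of 7 libraries by 43.6 ± 26.97 points (SD, n = 7). Arid1a had 70.6, 58.7, 81.4 and 51.2 with pracinostat and 59.9, 47.3 and 54.7 with DMSO. Here 47.3 is the shared rank of the lowest score in DMSO replicate 2. Arid1a exceeded Arid1b in 7 of 7 libraries by 23.9 ± 9.43 points (SD, n = 7), although their overall ranges overlapped. Pbrm1, the PBAF subunit with many bromodomains, had 78.7, 82.1, 90.9 and 45.4 with pracinostat and 49.7, 99.8 and 68.8 with DMSO. Pbrm1 was thus both among the highest genes of DMSO replicate 2 and near the middle in DMSO replicate 1, and an IgG library of the DMSO group had a summit in its window. Among genes in neither complex, Arid5a, an RNA-binding protein that stabilises inflammatory transcripts, had 57.5, 45.1, 73.3 and 54.0 with pracinostat and 54.1, 84.6 and 79.6 with DMSO. Arid5a exceeded Arid5b by 36.7 ± 16.3 points (SD, n = 7) without overlap. In the whole-gene ranks given below, the mean order of Arid5a and Arid5b turned, as did that of Arid1a and Arid1b.

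**Figure D3:**
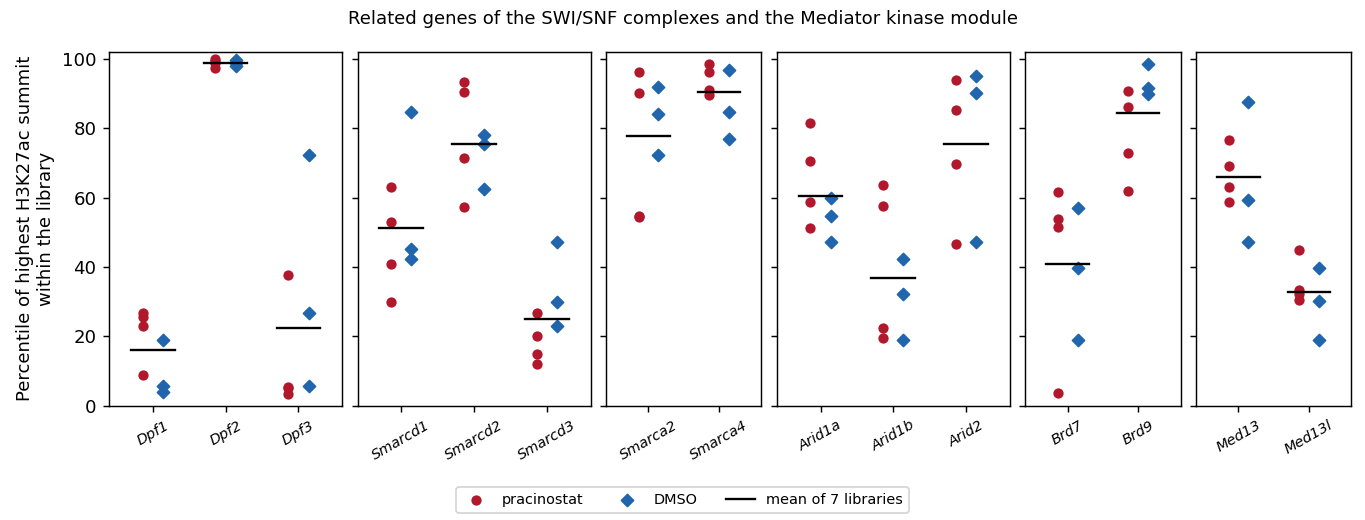
Percentile of the highest H3K27ac summit at the ends of related genes, with circles for 4 pracinostat libraries, diamonds for 3 DMSO libraries and bars for the mean of 7. Dpf2, with a mean of 98.9, stands clear of Dpf1 at 16.1 and Dpf3 at 22.3, and Brd9 and Med13 lie above Brd7 and Med13l without overlap.

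Gene ends do not hold all of the acetylation at the long members. In lists cut to the 30000 highest-scoring summits of each library, the median number of summits inside the gene and 1 kb around it was 14 at Arid1b, 12 at Arid1a and Med12l, 8 at Arid5b and 6 at Med13l. In DMSO replicate 2 only 18575 summits scored above its lowest score, so 11425 of its 30000 were a random draw among ties, and its counts (19 at Arid1b) and every comparison on these lists carry that draw. Arid1b had 13.5 ± 4.04 with pracinostat (SD, n = 4) and 14.0 ± 5.57 with DMSO (SD, n = 3). Ranked by the best summit anywhere in the gene, Arid1b had a mean percentile of 91.1, against 36.7 at its ends. Arid5b had 84.5 and 27.3, and Med13l 69.5 and 32.8. The shorter relatives of these genes had lower whole-gene means, 83.6 at Arid1a, 65.2 at Arid5a and 63.7 at Med13, so the order seen at the gene ends turned. It held for Brd9 (83.5) over Brd7 (45.2), and for Dpf2 (98.7) over Dpf1 (26.7) and Dpf3 (34.6). A long gene has more room for a high summit, so these whole-gene ranks are not free of length.

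Med12l, a paralogue of Med12 for the kinase module, is an extreme case because other genes lie within it. It had 13, 8, 18 and 11 such summits with pracinostat and 17, 8 and 12 with DMSO, and yet a summit at a gene end in 1 library. The purine receptor genes P2ry14, P2ry13 and P2ry12 lie inside it, of which P2ry12 is known as a marker of microglia. Of the 87 summits, 54 (62.1%) lay within these 3 genes and 1 kb around them, a stretch that makes up 30.02% of the window. Whether the acetylation belongs to Med12l or to genes nested in it cannot be told apart.

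**Figure D4:**
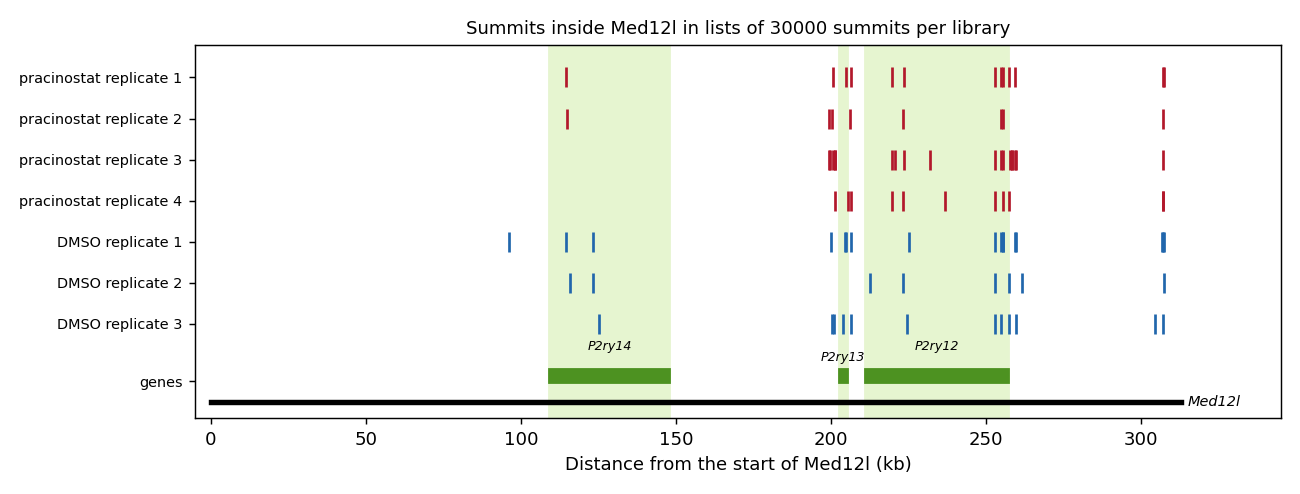
Positions of H3K27ac summits inside Med12l in kb from its start, in lists of 30000 summits per library, with 4 pracinostat rows above 3 DMSO rows and the P2ry genes inside it as green bars and shading. Summits recur in each library at P2ry12, and 54 of 87 lie within the 3 P2ry genes and 1 kb around them.

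No member differed between pracinostat and DMSO past the threshold. Normal scores of the percentiles (the percentile placed on a standard normal scale) were compared with limma over all 13494 ranked genes, and 0 of 58 members had a Benjamini-Hochberg adjusted p under 0.05, with 0% of all genes called. The lowest adjusted p among members was 0.809. At an unadjusted limma p under 0.05 there was 1 member (1.72%), Med30, against 6.17% of all ranked genes in either direction. It was lower with pracinostat, as 3.42% of all ranked genes were at that p, and 0 members were higher, against 2.74% of all ranked genes. The mean normal score was higher with pracinostat for 28 members (48.3%, against 48.6% of all ranked genes) and lower for 30. Brd7 and Pbrm1 were lower in mean normal score but higher in mean percentile. The median member difference was −0.01 normal-score units, as it was over all genes, and the members' differences ran from −0.81 to 0.63. A share near or below the background is not a result about the members.

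In the gene-end ranking Cdk8 was the 1 member (1.72%) whose groups did not overlap, lower with pracinostat, against 3.79% of all ranked genes lower and 2.88% higher without overlap. Its mean percentile was 64.4 ± 12.3 with pracinostat (SD, n = 4) and 85.8 ± 5.93 with DMSO (SD, n = 3), and the limma difference was −0.72 ± 0.39 normal-score units (SE) with an adjusted limma p of 0.811. An exact two-sided permutation test of its mean percentile over the 35 splits of 7 libraries gave p = 0.057, and 0.0286 is the smallest p this design allows. Med30 averaged 34.5 ± 21.7 with pracinostat and 60.2 ± 22.5 with DMSO (SD, n = 4 and 3), with a limma difference of −0.79 ± 0.38 (SE), an unadjusted p of 0.042 and an adjusted p of 0.809. Without pracinostat replicate 3, which had no summit there, the Med30 difference was −0.42, and its unadjusted limma p was above 0.05 without that library, without DMSO replicate 2 or without DMSO replicate 3. Brd9 averaged 77.9 ± 13.1 with pracinostat and 93.3 ± 4.64 with DMSO, a limma difference of −0.78 ± 0.42 (SE) with an adjusted limma p of 0.809.

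The same was seen of the members at the other extremes. Dpf3 had a limma difference of −0.81 ± 0.41 (SE), which was −0.24 without DMSO replicate 2, and its adjusted limma p was 0.809. Med18 had −0.60 ± 0.35 with an adjusted limma p of 0.848. Those with the largest positive differences were Med11 with 0.63 ± 0.45, Smarcb1 with 0.60 ± 0.37 and Dpf1 with 0.57 ± 0.36 (SE), and their adjusted limma p-values were 0.877, 0.851 and 0.855. The Smarcb1 mean was 71.9 ± 9.71 with pracinostat and 49.98 ± 10.99 with DMSO (SD, n = 4 and 3), with an exact permutation p of 0.086. None of these differences passed the adjusted limma threshold. Neutrophil markers were lower and microglia markers higher with pracinostat in the values given above, and their part in the differences at Cdk8, Med30, Brd9 and Smarcb1 was not tested.

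**Figure D5:**
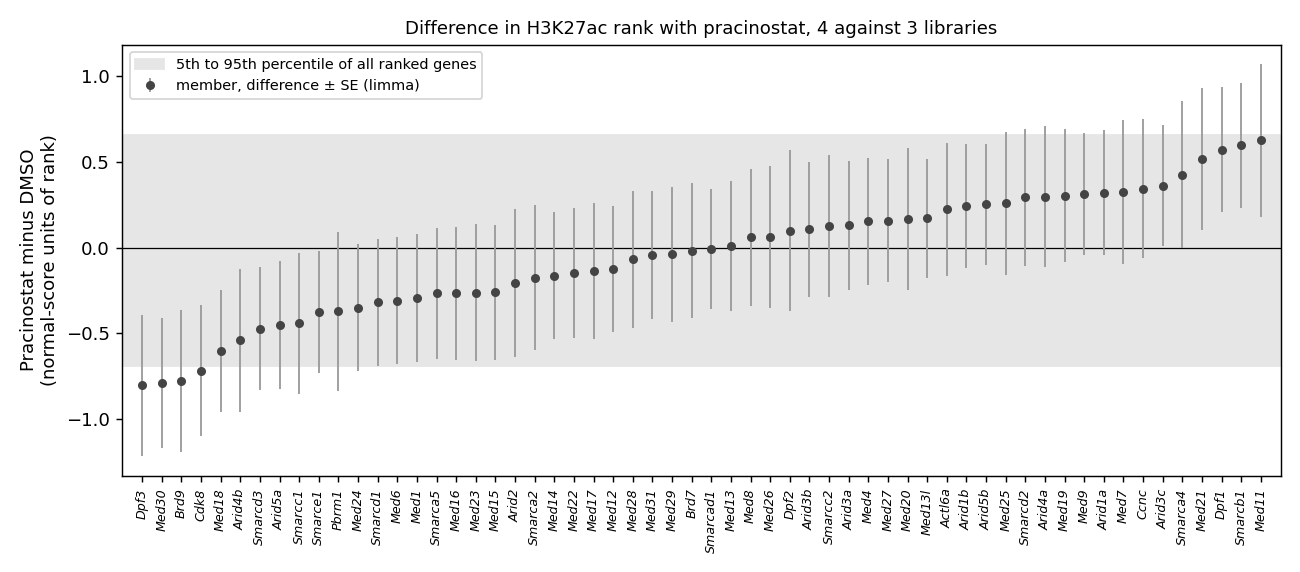
Difference in H3K27ac rank, pracinostat minus DMSO, in normal-score units for the 58 ranked members in rising order, with bars for the limma SE from 4 pracinostat and 3 DMSO libraries. The grey band is the 5th to 95th percentile of all ranked genes, and the members run from −0.81 at Dpf3 to 0.63 at Med11.

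Presence gave the same picture. In lists of 30000 summits, no member was gained (a summit in all 4 pracinostat lists and no DMSO list), against 0.137% of all genes, and none was lost (in all 3 DMSO lists and no pracinostat list), against 0.142%. Without DMSO replicate 3, 1 member, Med18, would count as lost. No test applies to these counts.

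Genes that work with the members gave similar counts. Of 13 SWI/SNF and kinase module partners outside the rule, 12 were ranked, 5 with a higher and 7 with a lower mean normal score with pracinostat. Among them 0 passed the adjusted limma test. Ss18, a subunit of BAF complexes, had percentiles of 5.15, 3.69, 5.23 and 8.52 with pracinostat and 19.6, 19.0 and 30.0 with DMSO, without overlap, and an adjusted limma p of 0.777. It had a summit in 3 libraries, so its lowest pracinostat values and the 19.0 of DMSO replicate 2 are those of genes without one. Of 20 genes of other remodellers, 19 were ranked, 12 higher and 7 lower, with 0 past the adjusted limma test. Ino80, the ATPase of the INO80 complex, had 87.7, 76.0, 98.1 and 94.4 with pracinostat, against 73.7, 62.6 and 54.7 with DMSO, without overlap, and an adjusted limma p of 0.777. All 13 RNA polymerase II subunit genes were ranked, 6 higher and 7 lower, and 0 passed the adjusted limma test. Polr2a, the largest subunit, had 54.5, 74.3, 61.7 and 48.4 with pracinostat, against 87.1, 72.3 and 95.8 with DMSO, with overlap at a single pracinostat library and an adjusted limma p of 0.777. Polr2f had 30.8, 48.3, 46.6 and 42.4 with pracinostat, against 63.9, 62.6 and 59.2 with DMSO, without overlap. Its adjusted limma p was 0.868. Of all ranked genes, 3.79% were lower and 2.88% higher with pracinostat without overlap, so such single genes are not a result about these lists.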

How the data were processed

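The deposited files were 14 lists of peak summits, 1 per library, with a −log10 significance value that the authors deposited for each summit. The sources used here do not say if p or q underlies it. The submitters' processing notes name mm10, HOMER, DESeq2, MACS2 2.2.9.1 and Bowtie2 without giving their roles. Scores had not been normalized between libraries, so they were ranked within a library only.

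Each protein-coding gene of RefSeq GRCm38.p6 took its highest score within 1 kb of either end, and genes without a summit shared the lowest rank, the 3.42 to 5.61 percentile and 19.0 in DMSO replicate 2. A gene was ranked if 3 or more of 7 H3K27ac libraries had a summit for it. Normal scores were fitted with limma 3.58.1 (trend, robust) in R 4.3.3 for 4 pracinostat against 3 DMSO libraries over all ranked genes, and adjusted by Benjamini-Hochberg at 0.05. The fit was checked on simulated data with 200 shifted genes. It recovered 0% of them at a shift of 1 normal-score unit, 59.5% at 2 and 96% at 3. Shifts as small as the differences of the members were not simulated, and a difference of that size could go uncalled. Intervals for depth could not be given.

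Genes printed in full were key subunits (Arid1a, Brd9, Cdk8, Med1, Med12, Pbrm1, Smarca4), those with the smallest p, the largest difference in each direction per role, and the highest or lowest level. Med10, Med12l, Smarcal1, Ss18, Ino80, Polr2a and Polr2f were added after their values were seen. Members and lists were chosen with earlier results of these data known. Alternatives were other windows, gene filters, list lengths, variance models, a replicate block and leaving out each library.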

Additional observations from a re-analysis of the deposited data

Results flagged for a closer look

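In groups of 4 libraries, a value was singled out by its gap to the nearest other, as a share of the group's range. The limit was Dixon's critical value at the 95% level, which chance passes in about 1 of 20 groups of normally distributed values. Of 24 groups examined, 2 had such a value. At Dpf3, pracinostat replicate 2 had a percentile of 37.8, far from the other pracinostat libraries at 3.42 to 5.23, which had no summit there. Among pracinostat IgG libraries, replicate 4 had a summit at 2 members, Arid3a and Med11, and the other 3 had none. In both groups the remaining libraries had no summit, so a summit in 1 library stands out readily and the rate of 1 in 20 does not hold.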

How the results depend on the processing

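Members past the adjusted limma threshold were 0 under all 18 alternatives, and the median member difference ran from −0.08 to 0.05. All ranked genes past it were 0 and became 2 with 500 bp windows, 1 with lists of 30000 summits, 2 with genes kept for a summit in at least 1 library, 1 with genes kept for a summit in all 7, and 0 to 4 when leaving out 1 library. Mean members with a summit in pracinostat H3K27ac libraries were 55.0 with 500 bp windows, 60.0 with 2500 bp windows and 48.5 at the 5′ end only (of 54 members with a start entry, an alternative chosen after seeing the data), and 46.0 in DMSO libraries at the 5′ end only. Members lost in lists of equal length were 0 to 1 when leaving out 1 library.

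Of 21 named members, 13 kept the sign of their difference under all 16 to 18 alternatives that gave them a value, and all 21 had adjusted p above 0.05 in each. The sign turned for Arid3c with 500 bp windows (−0.27), Smarcd3 with 2500 bp windows (0.00093), and with the whole gene for Arid1a (−0.047), Med12 (0.0012) and Med27 (−0.41). With list length as covariate it turned for Ccnc (−0.073), Med27 (−0.19) and Pbrm1 (0.49). When leaving out 1 library, Med12 ran from −0.47 to 0.26 (positive without pracinostat replicate 1 or DMSO replicate 3) and Dpf2 from −0.088 to 0.30 (negative without pracinostat replicate 4 or DMSO replicate 3). Ccnc ran from −0.057 to 0.84, Med27 from −0.15 to 0.46 and Pbrm1 from −0.93 to 0.49, each turning without DMSO replicate 2. The causes of these turns were not tested.

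Replicate numbers were not taken as pairing the samples, since same-numbered libraries had correlations of deviations of −0.05, 0.0005 and −0.02. With the replicate block, which sets aside pracinostat replicate 4 for want of a partner, 0 members and 0 genes passed, the median member difference was −0.08, and Dpf2 turned to −0.088. Med30 has no start entry and Dpf3 lacked a summit in most short lists, so not every alternative gave them a value. Read depth is not given, and its part in these values was not tested.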
